A study of Homo sapiens with 12 samples.

Results

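The collagen genes were taken as every gene symbol in the count tables made of COL, a number, the letter A and a second number with nothing after it, which gave 44 of the 23106 symbols. In these data 16 of the 44 had 10 or more counts in every library, 10 reached 10 counts in some libraries only, and 18 stayed under 10 counts in all 12 libraries. RNA was sequenced from RCC4, an established cell line from a human clear cell renal carcinoma that lacks functional VHL, 48 h after reverse transfection with pools of siRNA. Control dishes received 2 nM control siRNA, HIF1A siRNA dishes 1 nM HIF1A siRNA with 1 nM control siRNA, HIF2A siRNA dishes 1 nM siRNA against EPAS1 (which encodes HIF-2α) with 1 nM control siRNA, and double knockdown dishes 1 nM of each HIF siRNA with no control siRNA. All conditions were in the same VHL-deficient line, each had 3 biological replicates, and the comparisons asked which transcripts followed HIF-1α, HIF-2α or both. A knockdown in 1 cell line leaves some of the targeted RNA, and the double knockdown differed from the others in lacking the control siRNA.

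Collagens are trimers of chains that wind into a triple helix, and each COL gene encodes 1 chain. Most are secreted, while the transmembrane collagens span the cell membrane. Fibrillar collagens build the banded fibers of connective tissue, type IV builds the sheet of basement membranes under epithelia and around vessels, type VI forms beaded filaments, type VII anchors basement membranes to the matrix below, and fibril-associated (FACIT) collagens decorate the surface of fibers. Chains are hydroxylated in the endoplasmic reticulum by prolyl and lysyl hydroxylases, several of which are known HIF-1 targets, and are cross-linked outside the cell by lysyl oxidases.

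The libraries held 13263168 to 20451433 counts, and TMM factors lay between 0.980 and 1.020. HIF1A was at 58.2 to 120 CPM (counts scaled to a common library size) with control siRNA and 15 to 22.2 CPM with HIF1A siRNA (log2 fold change -2.37), and EPAS1 was at 138 to 171 CPM with control siRNA and 9.16 to 11.9 CPM with HIF2A siRNA (-3.95). With HIF1A siRNA, EPAS1 was at 101 to 134 CPM, below all control libraries (log2 fold change -0.47, adjusted p 0.28 by edgeR's quasi-likelihood test). HIF1A was at 111 to 136 CPM with HIF2A siRNA (0.37, adjusted p 0.93). In the double knockdown HIF1A was at 24.2 to 32.2 CPM and EPAS1 at 7.01 to 11.3 CPM. CA9, a HIF-1 target, fell by 3.64 on the log2 scale with HIF1A siRNA. Renal epithelial markers were present, with PAX8 at 229 ± 35.3 CPM and KRT8 at 437 ± 80 CPM (SD, n = 3) in control cells, while LRP2 of the proximal tubule had at most 4 counts. Of the mesenchymal markers, DCN, FAP, PDGFRA and THY1 had at most 1, 1, 4 and 9 counts in any library and LUM and PDGFRB at most 34 and 162, while ACTA2 averaged 9.63 to 11.5 CPM over the conditions and VIM, an intermediate filament that many carcinoma lines also make, 3661 to 4611 CPM. Of the endothelial markers PECAM1 was at 0 in all libraries, and KDR, CDH5, VWF and TIE1 had at most 4, 6, 8 and 22 counts. Of the immune markers PTPRC and CD3E were at 0 in all libraries, and CD68, a lysosomal protein, averaged 46.1 to 58.1 CPM. In a bulk library, fewer cells that make a collagen and less of its RNA per cell cannot be told apart.

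Collagen RNA in RCC4 was mainly that of the basement membrane. Together the 44 genes took 0.298 to 0.501% of all counts in a library, and COL4A1 with COL4A2 made up 62.1 to 77% of those collagen counts. The 2 genes encode the α1 and α2 chains of the type IV network found in most basement membranes. Per kilobase of reference transcript, which allows levels of different genes to be set side by side, COL4A1 averaged 240 CPM per kb and COL4A2 194 CPM per kb over the 12 libraries. COL7A1, the chain of the anchoring fibril, followed at 58.2 CPM per kb. The next genes were COL6A2 (44.1 CPM per kb) and COL6A1 (23.0) of beaded filaments, COL18A1 (27.2), whose product is a basement membrane proteoglycan and the source of endostatin, and COL5A1 (18.4), a minor chain of fibers that also contain type I.

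Of the chains that dominate connective tissue, COL3A1 and COL1A2 were nearly missing, while COL1A1 was present in every library. COL3A1 had no count in any library, which allows up to 3 counts, or 0.147 to 0.226 CPM, by counting error alone. COL1A2, the second chain of type I collagen, had 1 count in 1 library, whereas its partner COL1A1 had 264 to 1341 counts per library and a mean of 5.76 CPM per kb. COL5A2, the usual partner of COL5A1, averaged 0.264 CPM per kb against 18.4 for COL5A1, so that both fiber types had 1 of their chains far above the other. The other chains of type IV, which have a narrower tissue distribution, were low as well, with COL4A3 and COL4A4 at 0.132 and 0.122 CPM per kb and COL4A5 and COL4A6 at no more than 11 and 4 counts in any library. COL11A2, COL21A1, COL25A1 and COL9A1 were also at 0 throughout. COL23A1, a transmembrane collagen, had at most 6 counts in a library, too few for any comparison.

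**Figure D1:**
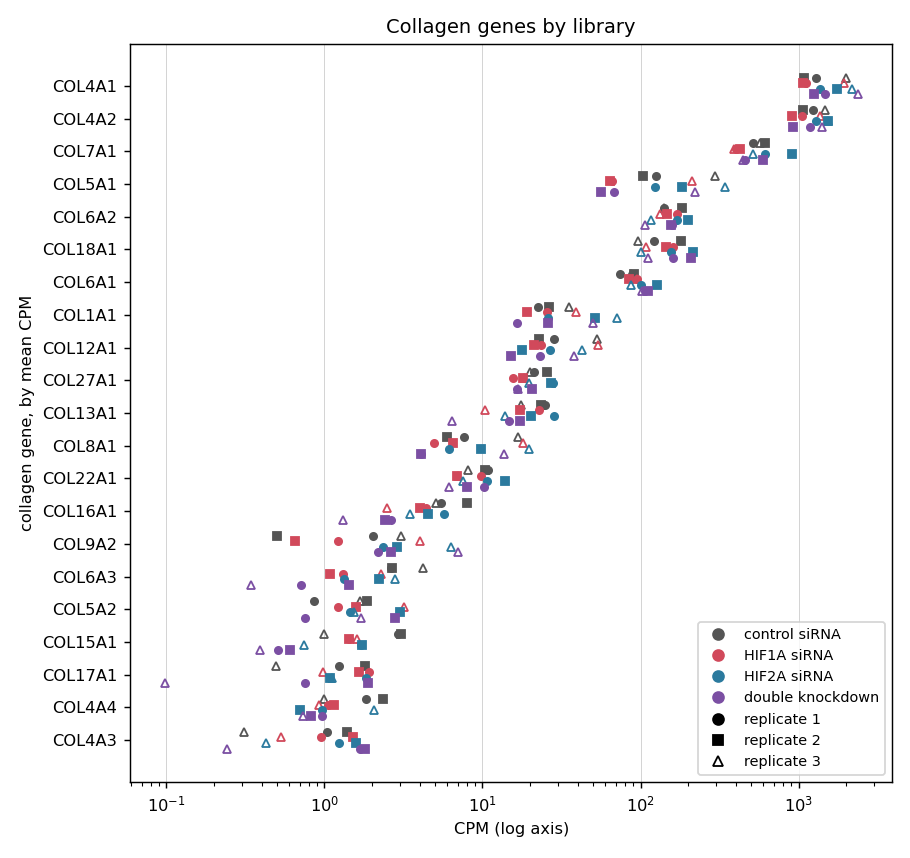
CPM of the 21 collagen genes that passed the expression filter, on a log axis, with a point for each of the 12 libraries (color, siRNA condition; shape, replicate number) and genes ordered by mean CPM. COL4A1 and COL4A2 lay at 913 CPM or more in every library, while COL4A3, COL4A4, COL17A1, COL15A1 and COL5A2 lay between 0.0974 and 3.21 CPM.

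Of the 44 genes, 21 passed the filter on low counts and were tested (5 of them with under 10 counts in some library). By class these were 4 of 11 fibrillar genes, 4 of 6 type IV genes, 1 of 3 short-chain network genes, 3 of 5 beaded filament genes, COL7A1, 4 of 10 FACIT genes, 2 of 2 multiplexins (COL15A1 and COL18A1) and 2 of 4 transmembrane genes. The 2 remaining genes, COL26A1 and COL28A1, did not pass. A gene that passed only through the condition in which it is high is part of these 21, so their counts describe the genes tested and not the whole family.

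The start regions of 4 of the 7 genes called in a comparison are shown because HIF binds a short core sequence in DNA: COL5A1 and COL7A1, which differed between the single knockdowns, and COL16A1 and COL15A1, which had the lowest adjusted p and the largest fold change in the double knockdown against control siRNA. The core was searched as ACGTG or GCGTG on both strands in the 250 bases before each RefSeq transcript start (GRCh38.p14). COL5A1 (chromosome 9, plus strand, chr9:134641553-134641802) held 1 match at -224 on the minus strand, and COL15A1 (chr9:98943657-98943906, plus strand) held 3, at -150, -127 and -90. COL7A1 (chr3:48595330-48595579, minus strand) and COL16A1 (chr1:31704018-31704267, minus strand) held none. Of the other called genes, COL6A3 held 0 matches, COL13A1 1 and COL12A1 2. Each sequence runs 5′ to 3′ toward the start, with matches in capitals (CACGT is ACGTG read on the other strand):
COL5A1: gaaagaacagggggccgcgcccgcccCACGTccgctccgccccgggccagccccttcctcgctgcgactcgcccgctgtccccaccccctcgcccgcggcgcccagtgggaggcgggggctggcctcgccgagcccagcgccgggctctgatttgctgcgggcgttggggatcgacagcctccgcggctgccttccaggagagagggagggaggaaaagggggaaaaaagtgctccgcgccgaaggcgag
COL15A1: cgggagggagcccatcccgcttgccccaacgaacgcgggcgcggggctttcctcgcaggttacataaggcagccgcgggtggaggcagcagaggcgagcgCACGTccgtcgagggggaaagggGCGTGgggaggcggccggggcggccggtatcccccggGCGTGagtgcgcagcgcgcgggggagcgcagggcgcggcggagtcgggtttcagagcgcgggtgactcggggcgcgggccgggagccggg
COL7A1: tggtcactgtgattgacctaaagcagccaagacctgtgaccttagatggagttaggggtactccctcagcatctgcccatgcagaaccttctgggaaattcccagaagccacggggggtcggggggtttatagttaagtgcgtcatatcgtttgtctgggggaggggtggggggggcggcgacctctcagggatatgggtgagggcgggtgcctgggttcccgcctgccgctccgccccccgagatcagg
COL16A1: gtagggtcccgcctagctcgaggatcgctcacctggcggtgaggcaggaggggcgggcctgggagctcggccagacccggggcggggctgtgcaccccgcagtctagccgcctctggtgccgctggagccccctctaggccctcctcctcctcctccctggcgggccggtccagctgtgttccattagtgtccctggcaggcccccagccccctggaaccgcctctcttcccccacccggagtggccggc
Among the collagen genes 32 had such windows, and 18 of their 44 windows (40.9%) held a match, against 43.2% of the 35116 windows of all genes. A match is a run of letters and not a binding site, and a window without one says nothing of binding elsewhere.

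COL4A1 and COL4A2 lie head to head on chromosome 13 and are read in opposite directions. In the 250 bases before each start, COL4A1 held 0 matches and COL4A2 held 1, at -220 on the plus strand. The 126 bases between their RefSeq starts (chr13:110307158-110307283 of GRCh38.p14, plus strand) are 80.2% G and C and hold no match to the core sequence, and are printed because both of the most abundant collagen RNAs start from their ends:
COL4A1 to COL4A2: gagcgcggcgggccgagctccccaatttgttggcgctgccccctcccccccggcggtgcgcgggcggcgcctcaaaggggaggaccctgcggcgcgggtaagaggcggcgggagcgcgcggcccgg
In the reference annotation the COL4A1 and COL4A2 genes overlap on opposite strands, and COL18A1 overlaps SLC19A1 in the same way. Whether the counting used strand is not given in the sources used here, so reads in the shared stretches cannot be assigned with certainty.

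HIF1A siRNA was compared with control siRNA in a fit of the 9 libraries without the double knockdown. No collagen gene reached an adjusted p under 0.05 by the quasi-likelihood test of edgeR after Benjamini-Hochberg adjustment, where 1.17% of the 12830 genes tested did. By unadjusted p under 0.05, 5 of the 21 collagen genes were lower and 0 higher, where 4.9% of all genes were lower and 2.42% higher: COL5A1, COL7A1, COL13A1, COL16A1 and COL6A3. DESeq2, run as an alternative, called 1 collagen gene, COL5A1, and 1.84% of all genes. The median log2 fold change of the 21 genes was -0.12, and that of all genes tested 0.003.

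COL5A1, the α1 chain of type V collagen, was at 126, 104 and 297 CPM in control replicates 1 to 3 and at 66.1, 64.3 and 212 CPM with HIF1A siRNA. Replicate 3 was the highest library in both conditions, so the groups overlapped, but within each replicate number the HIF1A siRNA library was the lower. With 0.5 CPM added to each value, the HIF1A siRNA libraries had 52.7, 61.8 and 71.6% of the control library of the same number. The log2 fold change was -0.70 (SE 0.17), with an adjusted p of 0.086 from edgeR's quasi-likelihood test. Its adjusted p passed 0.05 in 5 of 16 alternatives, DESeq2 among them (adjusted p = 0.0041), and leaving out control siRNA replicate 2 or all of replicate 2 also gave a call.

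COL7A1 was at 518, 609 and 572 CPM in control cells and at 401, 424 and 393 CPM with HIF1A siRNA. These groups did not overlap, as was so for COL16A1, COL27A1 and COL6A3 on the lower side, 4 of 21 genes where 4.22% of all genes did so. The log2 fold change of COL7A1 was -0.48 (SE 0.15) with an adjusted p of 0.26 by edgeR's quasi-likelihood test. COL27A1, a fibrillar chain of cartilage, was at 20 to 25.5 CPM in control cells and 15.5 to 18.2 CPM with HIF1A siRNA (log2 fold change -0.35, adjusted p 0.69). Levels of the type IV genes were close to those of control cells, with log2 fold changes of -0.09 (SE 0.13) for COL4A1 and -0.18 (SE 0.13) for COL4A2.

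HIF2A siRNA was compared with control siRNA in the same fit, so that both comparisons share the 3 control libraries. By edgeR's quasi-likelihood test no collagen gene reached an adjusted p under 0.05, where 0.0857% of all genes did, and DESeq2 called 0 collagen genes and 0.452% of all genes. By unadjusted p under 0.05, 3 collagen genes were higher (COL1A1, COL4A1 and COL9A2) and 0 lower, where 2.49% of all genes were higher and 2.88% lower. The median log2 fold change was 0.23 over the 21 genes and 0.006 over all genes tested. No collagen gene had groups that did not overlap in either direction, where 2.88% of all genes were lower and 2.4% higher in that way.

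COL1A1, the α1 chain of type I collagen, was at 22.4, 26.5 and 35.4 CPM in control cells and at 26, 51.3 and 71.1 CPM with HIF2A siRNA. Replicates 2 and 3 with HIF2A siRNA stood above all control libraries, and replicate 1 stood among them. The log2 fold change was 0.77 (SE 0.21), with an adjusted p of 0.48 by edgeR's quasi-likelihood test. The adjusted p was under 0.05 in 1 of 16 alternatives, the fit without replicate 1 (0.046), which drops the pair with the smallest change. Without replicate 2 it was 0.36. COL4A1 was at 1295, 1081 and 1998 CPM in control cells and at 1375, 1745 and 2167 CPM with HIF2A siRNA (log2 fold change 0.31, SE 0.14), and COL4A2 at 1230, 1060 and 1469 CPM and at 1297, 1533 and 1542 CPM (0.24, SE 0.13). Both were higher in all 3 pairs, most in pair 2. COL9A2, a FACIT chain of cartilage, was at 0.502 to 3.04 CPM in control cells and 2.36 to 6.36 CPM with HIF2A siRNA, and rested on as few as 10 counts in a library.

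The direct comparison of HIF1A siRNA with HIF2A siRNA tests whether the 2 knockdowns differed. It sets no control library against another group, but it uses the same knockdown libraries as both comparisons above. It came from the same fit of 9 libraries, so the control libraries entered the filter, the TMM factors, the replicate block and the estimate of spread. Here 2 collagen genes, COL5A1 and COL7A1, were lower with HIF1A siRNA at an adjusted p under 0.05 and 0 were higher, where 1.23% of all genes were called lower and 0.273% higher. COL5A1 was at 66.1, 64.3 and 212 CPM with HIF1A siRNA and at 123, 182 and 343 CPM with HIF2A siRNA. The groups overlapped through replicate 3 with HIF1A siRNA, which lay above replicates 1 and 2 with HIF2A siRNA, but each pair was lower. The log2 fold change was -1.05 (SE 0.17), with an adjusted p of 0.0052 by edgeR's quasi-likelihood test.

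COL7A1 was at 401, 424 and 393 CPM with HIF1A siRNA and at 612, 915 and 516 CPM with HIF2A siRNA, and the groups did not overlap. Its log2 fold change was -0.72 (SE 0.15), with an adjusted p of 0.025 by edgeR's quasi-likelihood test. Replicate 2 with HIF2A siRNA was the highest library, and in that pair HIF1A siRNA had 46.4% of the HIF2A siRNA value, against 65.5 and 76.3% in pairs 1 and 3. The call for COL5A1 was lost without HIF1A siRNA replicate 1 or 2, when the count of called collagen genes fell to 0. That for COL7A1 was lost when any replicate number or any HIF1A siRNA library was left out. COL27A1 and COL7A1 were the 2 genes with groups that did not overlap on the lower side, where 4.35% of all genes were so placed.

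By unadjusted p under 0.05, 7 collagen genes were lower with HIF1A than HIF2A siRNA and 0 higher, where 5.99% of all genes were lower and 4.22% higher, with COL1A1, COL27A1, COL4A1, COL4A2 and COL9A2 beside the 2 genes called. Of the 21 genes, 12 were lower in all 3 pairs and 0 higher in all 3, where 19.3% of all genes were lower and 18.1% higher in that way. The median log2 fold change was -0.33 over the collagen genes and -0.007 over all genes. The difference for COL4A1 between the knockdowns was -0.41 on the log2 scale (SE 0.14, adjusted p 0.26 by edgeR's quasi-likelihood test), that for COL4A2 -0.42 (SE 0.13, adjusted p 0.20) and that for COL1A1 -0.79 (SE 0.21, adjusted p 0.12).

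**Figure D2:**
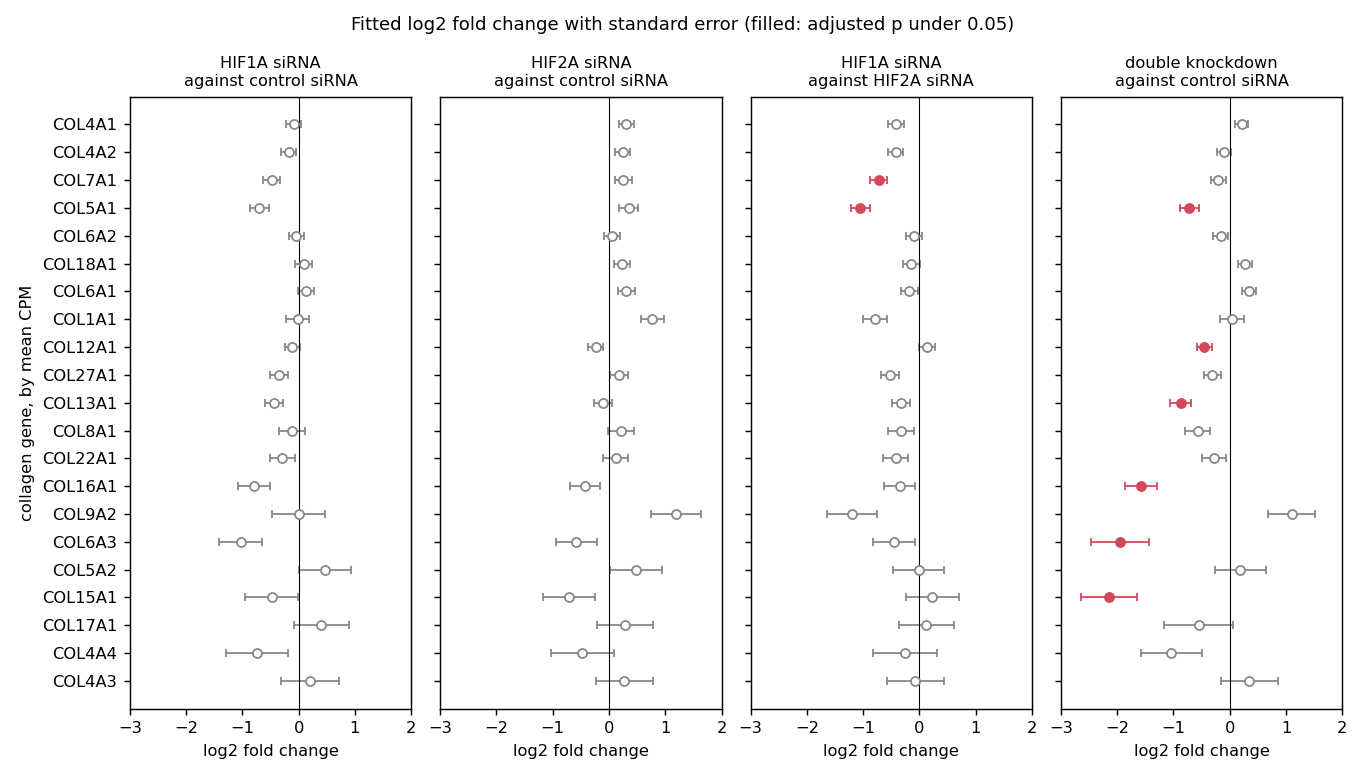
Fitted log2 fold change (x axis) with its standard error for the 21 collagen genes in 4 comparisons, with genes ordered by mean CPM and filled points for an adjusted p under 0.05. COL5A1 and COL7A1 were called between HIF1A and HIF2A siRNA, 6 genes were called lower in the double knockdown and 0 in either single knockdown against control siRNA.

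In the double knockdown 6 of the 21 collagen genes fell against control siRNA and 0 rose by edgeR's quasi-likelihood test at an adjusted p under 0.05. Of all 13000 genes tested in the fit of 12 libraries, 6.42% fell and 3.86% rose. The 6 genes were COL5A1 of fibers, COL6A3 of beaded filaments, the FACIT genes COL12A1 and COL16A1, the multiplexin COL15A1 and the transmembrane COL13A1. By unadjusted p under 0.05, 7 collagen genes were lower and 2 higher, where 1795 and 1496 of the 13000 genes were. COL8A1 was lower beside the 6 genes called (log2 fold change -0.57, SE 0.22, adjusted p 0.11 by edgeR's quasi-likelihood test). The higher genes were COL6A1 (0.34, SE 0.13, adjusted p 0.10) and COL9A2 (1.10, SE 0.42, adjusted p 0.11). The median log2 fold change was -0.28 over the collagen genes and 0.005 over all genes. The 4 most abundant genes apart from COL5A1 were not called, with log2 fold changes of 0.21 (SE 0.12) for COL4A1, -0.10 (SE 0.12) for COL4A2, -0.20 (SE 0.13) for COL7A1 and -0.16 (SE 0.13) for COL6A2.

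COL5A1 was at 67.9, 56.4 and 221 CPM in the double knockdown, against 126, 104 and 297 CPM in control cells. As with HIF1A siRNA alone, replicate 3 was the highest library of its condition and each pair was lower. The log2 fold change was -0.72 (SE 0.17, adjusted p 0.012 by edgeR's quasi-likelihood test). The call was kept in 11 of 16 alternatives and lost without the block and when replicate 1, its control siRNA library alone or double knockdown replicate 1 or 2 was left out. Against HIF1A siRNA, the double knockdown differed by -0.02 (SE 0.17) on the log2 scale, less than the error and with a sign that changed with the libraries left out.

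COL16A1, a FACIT collagen, was at 5.45, 8.03 and 5.08 CPM in control cells, 4.40, 4.03 and 2.48 CPM with HIF1A siRNA, 5.73, 4.52 and 3.50 CPM with HIF2A siRNA and 2.63, 2.41 and 1.31 CPM in the double knockdown. The double knockdown libraries lay below all control and HIF2A siRNA libraries, and replicate 3 was the lowest of each condition. The log2 fold change against control siRNA was -1.58 (SE 0.28, adjusted p 0.002 by edgeR's quasi-likelihood test), on 27 to 160 counts per library in the 2 conditions. The single knockdowns had log2 fold changes of -0.79 (SE 0.28) for HIF1A and -0.43 (SE 0.27) for HIF2A, neither of which passed the test. In 14 of 16 alternatives the call in the double knockdown was kept, and the adjusted p was 0.08 without replicate 3 and 0.065 without the replicate block.

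COL13A1, a transmembrane collagen of cell-matrix contacts, was at 24.8, 23.6 and 17.6 CPM in control cells and 14.7, 17.2 and 6.43 CPM in the double knockdown, and the groups did not overlap. Its log2 fold change was -0.87 (SE 0.19, adjusted p 0.0086 by edgeR's quasi-likelihood test). The call was kept in 10 of 16 alternatives, with log2 fold changes of -1.11 to -0.60, and was lost without the block, without replicate 1 or 3, without control siRNA replicate 3 and without double knockdown replicate 1 or 3. COL12A1, a FACIT collagen of tendon and other dense tissue, was at 28.2, 22.8 and 53.3 CPM in control cells and 23, 15.1 and 38 CPM in the double knockdown. Its groups overlapped and each pair was lower, with a log2 fold change of -0.45 (SE 0.13, adjusted p 0.04 by edgeR's quasi-likelihood test). This call for COL12A1 was lost when any 1 control siRNA or double knockdown library, or any replicate number, was left out.

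The 2 genes with the largest fold changes were low. COL15A1, a basement membrane zone collagen, was at 2.94, 3.06 and 0.992 CPM in control cells and 0.505, 0.602 and 0.389 CPM in the double knockdown, which stands on 8 to 10 counts per double knockdown library. Its log2 fold change was -2.14 (SE 0.50, adjusted p 0.013 by edgeR's quasi-likelihood test). COL6A3, the long chain of type VI collagen, was at 2.64, 2.66 and 4.22 CPM in control cells and 0.708, 1.43 and 0.341 CPM in the double knockdown, on 7 to 19 counts (log2 fold change -1.95, SE 0.51, adjusted p 0.026 by edgeR's quasi-likelihood test). The call for COL15A1 was kept in 7 of 15 alternatives (log2 fold changes of -2.44 to -1.92), and was lost without the block, when any 1 replicate number was left out, and without replicate 1 or 2 of either compared condition. That for COL6A3 was kept in 8 of 15 (-2.63 to -1.34), and was lost without the block and without replicate 1 or 3, whether of all conditions or of either compared one. Neither gene's groups overlapped. On the lower side this held for 5 of the 21 genes (COL13A1, COL15A1, COL16A1, COL4A4 and COL6A3), and on the higher side for COL6A1, where 8.55 and 7.08% of all genes did so.

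**Figure D3:**
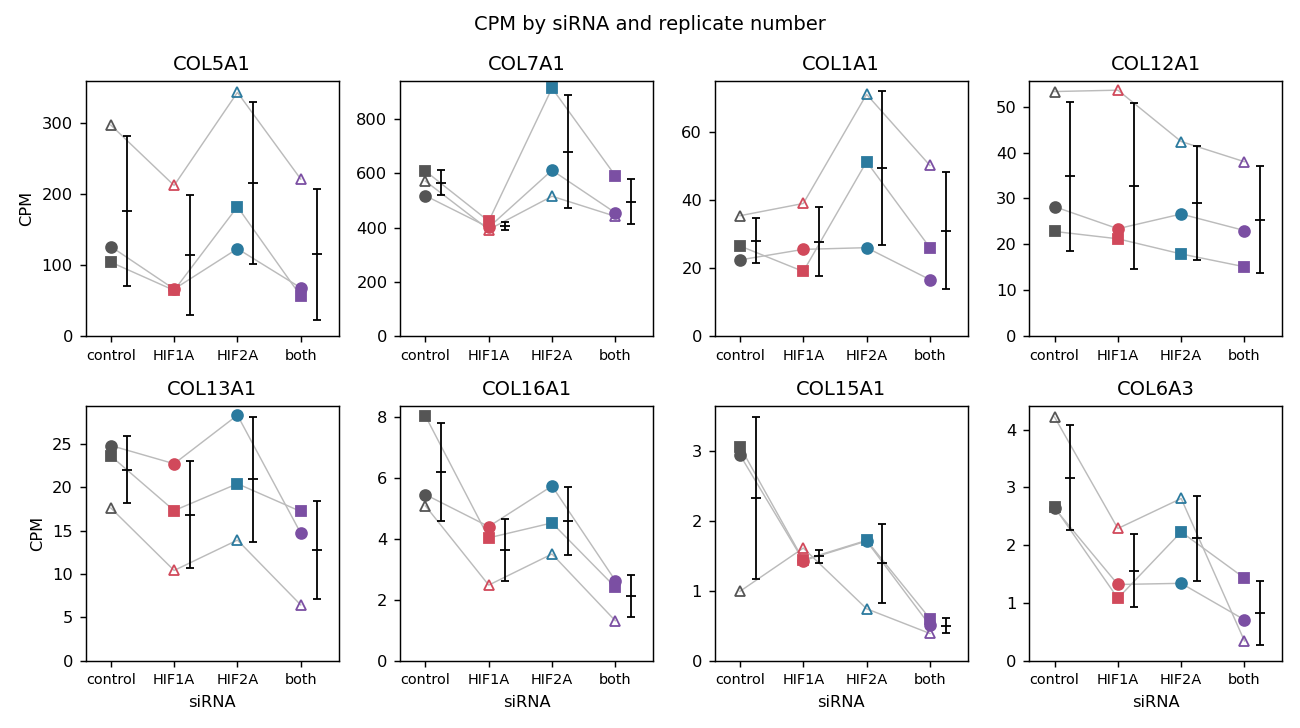
CPM of 8 collagen genes in each condition (control siRNA, HIF1A siRNA, HIF2A siRNA and both), with a point per library, grey lines joining libraries of the same replicate number, and bars for the mean ± SD of 3 replicates. COL5A1, COL1A1 and COL12A1 were highest in replicate 3 of every condition, and COL16A1 and COL13A1 were lowest there.

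The split between falling and rising collagen genes in the double knockdown depended on the fit. With a trend with GC content and transcript length removed from each library, 8 genes were called, 5 lower and 3 higher, the higher ones being COL4A1 (log2 fold change 0.34, SE 0.08), COL6A1 (0.37, SE 0.09) and COL18A1 (0.26, SE 0.08), while COL12A1 was no longer called. The balance over all genes moved too, to 7.81% lower and 7.87% higher. In the main fit COL4A1, COL6A1 and COL18A1 had log2 fold changes of 0.21 (SE 0.12), 0.34 (SE 0.13) and 0.27 (SE 0.13). Their transcripts are 55.2, 63.5 and 67.2% G and C, and that of COL12A1 46.3%. The part of G and C content in these calls was not tested. With the fit restricted to the control and double knockdown libraries, 9 genes were called, 6 lower and 3 higher, and the higher ones were the same 3 genes, where 11.5% of all genes were lower and 9.31% higher. Leaving out 1 library or 1 replicate number left 1 to 4 calls, with 2.33 to 12.6% of all genes called: 1 (COL16A1) without replicate 1 or without double knockdown replicate 1, 1 (COL5A1) without replicate 3, and 3 without control siRNA replicate 1 or 3 or double knockdown replicate 2 or 3. In the fit without control siRNA replicate 1, COL9A2 was called higher. With 10 or more counts required in every library, 4 genes were called, all lower (COL5A1, COL12A1, COL13A1 and COL16A1). In that fit 7.06% of all genes were lower and 4.45% higher, and COL15A1 and COL6A3 were not tested.

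Against the single knockdowns, the double knockdown was tested in the same 12 libraries, and each of these comparisons shares the 3 double knockdown libraries with the one above. Against HIF1A siRNA no collagen gene was called by edgeR's quasi-likelihood test or by DESeq2, where edgeR called 1.4% and DESeq2 3.1% of all genes. By unadjusted p under 0.05, 4 were lower (COL12A1, COL13A1, COL15A1 and COL16A1) and 3 higher (COL4A1, COL7A1 and COL9A2), where 6.97% of all genes were lower and 5.22% higher. COL7A1 was at 455, 592 and 442 CPM in the double knockdown, above all 3 HIF1A siRNA libraries (401, 424 and 393 CPM), with a log2 fold change of 0.27 (SE 0.13) and an adjusted p of 0.40. COL15A1 and COL16A1 had log2 fold changes of -1.65 (SE 0.50) and -0.79 (SE 0.28).

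Against HIF2A siRNA 3 collagen genes were lower in the double knockdown and 0 higher at an adjusted p under 0.05, where 3.22% of all genes were called lower and 0.785% higher. They were COL5A1 (log2 fold change -1.07, SE 0.17), COL16A1 (-1.14, SE 0.28) and COL13A1 (-0.75, SE 0.19), with adjusted p-values of 0.0014, 0.034 and 0.039 by edgeR's quasi-likelihood test. With the fit restricted to these 2 conditions none of the 3 was called and 1.3% of all genes were, and leaving out single libraries or replicate numbers left 1 to 3 calls, with 1.22 to 3.53% of all genes called. The call was kept in 14 of 16 alternatives for COL5A1, 8 of 16 for COL13A1 and 5 of 16 for COL16A1. COL5A1 alone was called without replicate 1 or 3 and without double knockdown replicate 1 or 3. DESeq2 called 6 collagen genes, where it called 4.49% of all genes lower and 1.8% higher. By unadjusted p under 0.05 in edgeR, 10 collagen genes were lower and 0 higher, where 1310 and 1007 of the 13000 genes were. Beside the 3 called, these were COL15A1, COL1A1, COL27A1, COL4A2, COL6A3, COL7A1 and COL8A1. For COL8A1 the log2 fold change was -0.78 (SE 0.22, adjusted p 0.063 by edgeR's quasi-likelihood test). The interaction, the effect of both siRNAs beyond the sum of the single effects, was called for no collagen gene by either tool and, in edgeR, for 0% of the 13000 genes. By unadjusted p under 0.05 it was negative for COL1A1 (-0.69, SE 0.30) and for 1.56% of all genes, and positive for 0 collagen genes and 0.885% of all genes. COL1A1 was at 25.5, 19 and 39 CPM with HIF1A siRNA and at 16.6, 26 and 50.2 CPM in the double knockdown, against 26, 51.3 and 71.1 CPM with HIF2A siRNA alone.

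Replicate number accounted for more of the spread of the collagen genes than the siRNAs did. Of the variance of log2(CPM + 0.5) over the 12 libraries, the replicate number took a median of 53.7% per collagen gene and the siRNA 30%, and over all 13000 genes the medians were 46.4 and 19.2%. Replicate number took the larger share in 14 of the 21 genes, and in 8816 of all 13000 genes. These shares are not scaled for the number of groups, 4 conditions against 3 replicate numbers. The replicate share was 88.4% for COL12A1, 82.2% for COL8A1, 80.1% for COL18A1, 75% for COL4A1 and 68.2% for COL5A1. The siRNA took the larger share for COL16A1 (73.5%), COL6A3 (68.7%), COL15A1 (67.2%), COL27A1 (63.4%) and COL7A1 (61.5%), among others. Every collagen call rested on the replicate number as a block: without it no collagen gene was called in any comparison, and edgeR's adjusted p between HIF1A and HIF2A siRNA was 1 for COL5A1 and 0.38 for COL7A1. Calls over all genes fell as well without the block, from 10.3 to 1.5% for the double knockdown against control siRNA, from 4.0 to 0.692% for it against HIF2A siRNA and from 1.5 to 0.405% between the single knockdowns.

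For 14 of the 21 genes, replicate 3 differed from replicates 1 and 2 in the same direction whichever siRNA was used. On the log2(CPM + 0.5) scale it stood above their mean in all 4 conditions for 7 genes (COL5A1, COL8A1, COL9A2, COL12A1, COL1A1, COL4A1 and COL4A2), below it in all 4 for another 7 (COL13A1, COL16A1, COL17A1, COL18A1, COL22A1, COL4A3 and COL6A2), and on both sides for the remaining 7. Over all genes the shares were 33.5% above and 32.2% below in all 4 conditions, about those of the collagen genes (33.3% each). The difference was 1.19 to 1.83 for COL5A1, for COL8A1, a short-chain collagen of vessel walls and the cornea, 1.25 to 1.62, for COL12A1 0.94 to 1.25 and for COL18A1 -0.86 to -0.49. What set replicate 3 apart is not given in the labels and was not tested.

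**Figure D4:**
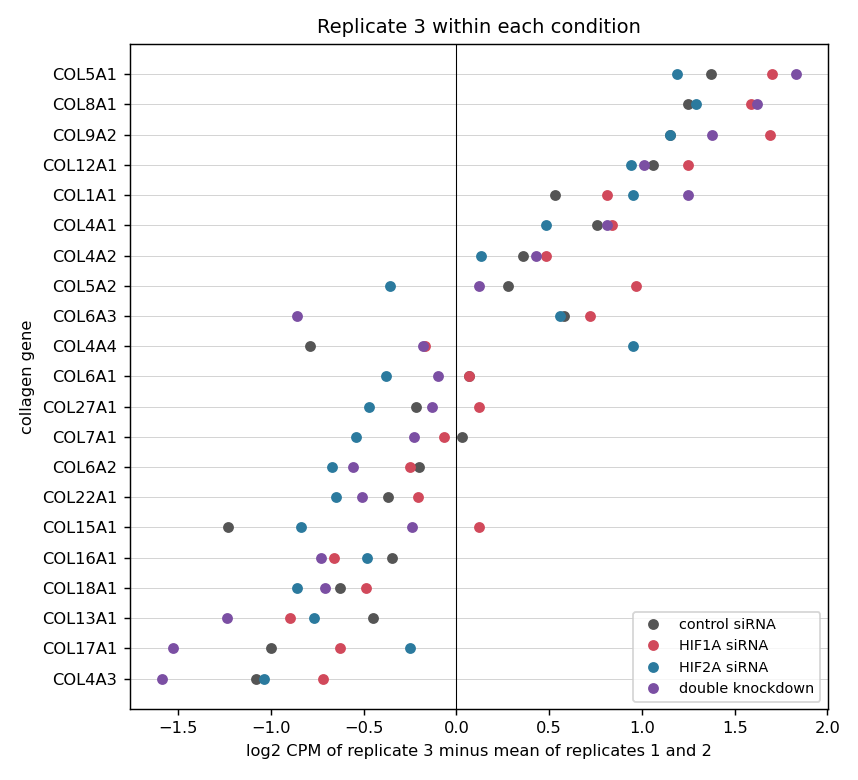
Difference in log2(CPM + 0.5) between replicate 3 and the mean of replicates 1 and 2 (x axis) for the 21 collagen genes, with a point per condition. COL5A1 lay between 1.19 and 1.83 in all 4 conditions and COL18A1 between -0.86 and -0.49.

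The chains of one trimer did not keep one ratio. COL4A1 and COL4A2 enter the common type IV trimer together, and their ratio of CPM per kb was 1.04, 1.01 and 1.34 in control replicates 1 to 3, 1.04, 1.15 and 1.40 for HIF1A siRNA, 1.04, 1.12 and 1.39 for HIF2A siRNA and 1.22, 1.32 and 1.66 in the double knockdown. The double knockdown library had the highest ratio within each replicate number, and replicate 3 the highest within each condition. COL6A1 to COL6A2 gave 0.433, 0.408 and 0.507 in control cells, 0.461, 0.474 and 0.585 for HIF1A siRNA, 0.485, 0.520 and 0.614 for HIF2A siRNA and 0.548, 0.589 and 0.782 in the double knockdown. Within each replicate number this ratio was lowest in control cells, then with HIF1A siRNA, then with HIF2A siRNA, and highest in the double knockdown, whereas for COL4A1 to COL4A2 the single knockdowns lay close together. For type VI the double knockdown ratios lay above all control ratios, and for type IV they overlapped through control replicate 3. These ratios were described and not tested, and they compare the change of one chain with the other, not the level of either.

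**Figure D5:**
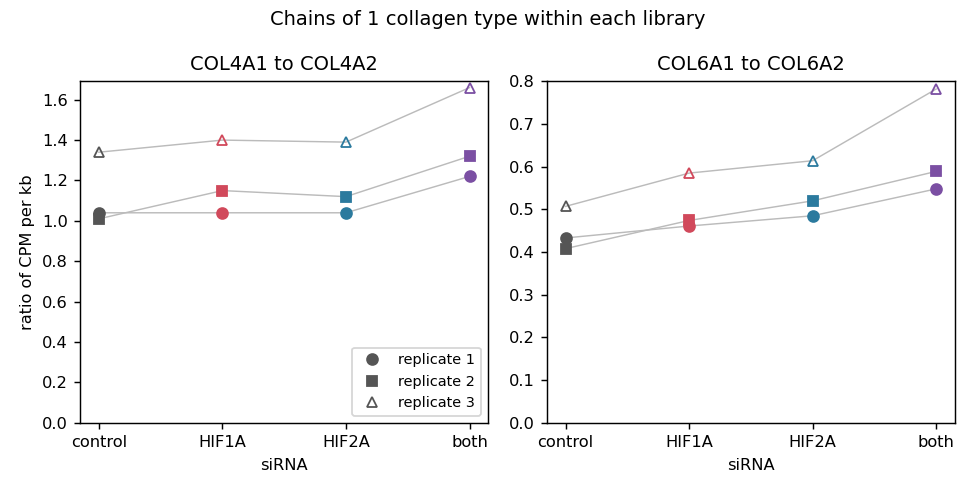
Ratio of CPM per kilobase of transcript of COL4A1 to COL4A2 (left) and of COL6A1 to COL6A2 (right) in each library, with grey lines joining libraries of the same replicate number. In both pairs of chains the double knockdown had the highest ratio within each replicate number, up to 1.66 and 0.782 in replicate 3.

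Some of the genes that modify and cross-link collagen were called by edgeR in the single knockdowns against control siRNA. Of the list for folding, modification and export, 21 genes were tested, and 3 fell with HIF1A siRNA against control siRNA and 0 rose, where 1.14% of all genes fell and 0.0312% rose. They were P4HA1 and P4HA2, the catalytic subunits of prolyl 4-hydroxylase (log2 fold changes -1.14, SE 0.14, and -0.67, SE 0.12), and PLOD2, a lysyl hydroxylase (-1.05, SE 0.13), with adjusted p-values of 0.00053, 0.0093 and 0.00074 by edgeR's quasi-likelihood test. P4HA1 was at 201 ± 17.6 CPM in control cells, 92.3 ± 16.5 with HIF1A siRNA, 228 ± 56.7 with HIF2A siRNA and 79.8 ± 16 in the double knockdown (SD, n = 3 each). In the double knockdown P4HB, the β subunit of the same enzyme, also fell (-0.36, SE 0.09). With HIF2A siRNA 0 of the 21 genes were called by edgeR or by DESeq2, where edgeR called 0.0857% and DESeq2 0.452% of all genes. At an unadjusted p under 0.05 in edgeR, 0 of the 21 were lower or higher, where 2.88% of all genes were lower and 2.49% higher. The median log2 fold change of the list was -0.10 for HIF1A siRNA, 0.01 for HIF2A siRNA and -0.05 for the double knockdown.

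Among 12 tested genes of procollagen processing and cross-linking, LOX, the lysyl oxidase, fell with HIF1A siRNA from 156 ± 38.8 to 53.1 ± 9.75 CPM (log2 fold change -1.55, SE 0.14), and TGM2, a transglutaminase, fell with HIF2A siRNA from 127 ± 11.8 to 74.7 ± 1.12 CPM (-0.75, SE 0.11). Both differed between the single knockdowns, LOX by -1.49 and TGM2 by 0.95 for HIF1A against HIF2A siRNA, with adjusted p-values of 4.1e-05 and 0.00052 by edgeR's quasi-likelihood test. In the double knockdown LOXL2 fell as well (-0.63, SE 0.10), and ADAMTS3, a procollagen N-proteinase, rose (0.50, SE 0.13). Of the collagen receptors, 3 were tested in the fit of 9 libraries and 5 in that of 12, and 0 were called against control siRNA by edgeR or DESeq2. Of all genes, edgeR called 1.17% with HIF1A siRNA, 0.0857% with HIF2A siRNA and 10.3% in the double knockdown. By unadjusted p under 0.05 in edgeR, 1 receptor was lower with HIF1A siRNA, 0 with HIF2A siRNA and 2 in the double knockdown. By that rule 4.9% of all genes were lower with HIF1A siRNA, 2.88% with HIF2A siRNA and 1795 of 13000 in the double knockdown.

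In the lists for collagen breakdown and the surrounding matrix most genes were not called in the double knockdown against control siRNA, and those called were lower, where 6.42% of all genes fell and 3.86% rose. Of 10 tested genes of breakdown and uptake, 3 fell and 0 rose: MMP9, a gelatinase (log2 fold change -1.41, SE 0.25), MMP15, a membrane-bound metalloproteinase (-0.63, SE 0.13), and MRC2, an endocytic collagen receptor (-0.55, SE 0.15). Of 17 matrix partners, 6 fell and 0 rose, among them the laminin chains LAMB3 (-0.85, SE 0.16) and LAMC1 (-0.45, SE 0.13) and peroxidasin PXDN (-0.58, SE 0.13), which forms sulfilimine cross-links in type IV collagen. Thrombospondin THBS1 fell from 3072 ± 497 to 1543 ± 267 CPM. COL4A3BP, also among the 6, encodes a ceramide transfer protein and no matrix component. Of 13 genes of the TGF-beta response, 5 fell and 1 rose, with TGFBI, a collagen-binding matrix protein, at 3768 ± 345 CPM in control cells and 2016 ± 219 CPM in the double knockdown (-0.91, SE 0.09), and SMAD3 rising by 0.64 on the log2 scale (SE 0.12). The medians were -0.50, -0.44 and -0.11 for these 3 lists, beside 0.005 over all genes. Of 7 tested renal epithelial markers KRT18 rose (0.49, SE 0.13) and KRT19 fell (-0.57, SE 0.11) in the double knockdown. Of 4 tested mesenchymal markers 0 were called by edgeR or DESeq2. At an unadjusted p under 0.05 in edgeR, 1 of these 4 was lower, where 1795 of the 13000 genes tested were. The part of these genes and markers in the differences of the collagen genes was not tested.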

How the data were processed

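Fragments were trimmed with Trim Galore (0.3.3), aligned to hg19 with HISAT2 (2.05), freed of multiply mapped fragments with Picard (2.0.1) and counted per gene with HTSeq (0.5.4p3), as the submitters' processing notes and the study's methods state. The deposited values are raw counts per symbol, 1 table per library, which the authors did not normalize. From these counts, CPM used the library total scaled by its TMM factor. Differential expression was tested with edgeR's quasi-likelihood test (4.0.16, R 4.3.3) with edgeR's expression filter (minimum count 10, total 15), a block for the replicate number, and Benjamini-Hochberg adjustment over all genes tested, in 9 libraries (12830 genes) or, for the double knockdown, 12 (13000 genes). The study's methods pair conditions by biological replicate. Across genes, the deviations of 2 libraries from their condition means correlated at 0.0991 to 0.813 when they had the same number and at -0.724 to 0.527 when they did not. The alternatives included DESeq2 (1.42.0), other filters, no block and libraries left out. Lengths and GC content came from canonical GENCODE transcripts of GRCh38, matched to 94.1% of symbols, and start windows from RefSeq. The floor given for COL3A1 covers counting error only. Each SE of a fold change is the absolute log2 fold change divided by the square root of edgeR's F statistic. It therefore includes the spread between replicates. Genes named were those called, the 10 most abundant, those at an unadjusted p under 0.05 in one direction in all 3 pairs, and their chain partners. The collagen genes and the gene lists were chosen with earlier results of these data known. Some genes of these lists are not reported here.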

Additional observations from a re-analysis of the deposited data

Results flagged for a closer look

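The effects of the single knockdowns on 2 collagen genes differed by the direct test between them. Of all genes, 1.23% were called lower with HIF1A siRNA and 0.273% higher. For COL5A1 the difference of HIF1A siRNA from HIF2A siRNA was -1.05 on the log2 scale, lower in 3 of 3 pairs (adjusted p 0.0052 in edgeR's quasi-likelihood test), and for COL7A1 it was -0.72, also lower in 3 of 3 pairs (adjusted p 0.025). The call was kept in 13 of 16 alternatives for COL5A1 and in 9 of 16 for COL7A1. Both calls were lost without the replicate block and without HIF1A siRNA replicate 1 or 2.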

How the results depend on the processing

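Of 844 values of collagen genes under the alternatives, 743 kept their direction and side of the threshold, 70 lost a call, 27 gained one and 4 changed sign. Most of these genes were followed because of their p, so the shared direction is no sign of stability. The 4 sign changes were all of COL5A1 in the double knockdown against HIF1A siRNA, at 0.01 without the replicate block, 0.04 without replicate 2, 0.07 without HIF1A siRNA replicate 3 and 0.13 without double knockdown replicate 2, and the lowest value was -0.18 without double knockdown replicate 3. Without the replicate block the pairing was lost and no collagen gene was called in any comparison, so that the counts fell to 0 between the single knockdowns and to 0 for the double knockdown against control or HIF2A siRNA. Over all genes 0.405, 1.5 and 0.692% were still called there. HIF1A siRNA against control siRNA gave 1 call at an adjusted p under 0.1, without a filter, with DESeq2 or with the GC and length trend removed. In that order, 189 of the 12830 genes and 1.24, 1.84 and 1.69% of all genes were called. With the GC and length trend removed, the double knockdown gave 1 call against HIF1A siRNA (COL4A1), where 2.88% of all genes were called. Against HIF2A siRNA it gave 6 at an adjusted p under 0.1, without a filter or with DESeq2, and 0 with only the compared libraries. The calls over all genes were 792 of 13000, 3.82%, 6.29% and, with only the compared libraries, 1.3%. Leaving out 1 library or replicate number gave 0 to 1 calls for HIF1A and for HIF2A siRNA against control siRNA, 0 to 3 between them, and for the double knockdown 1 to 4 against control siRNA, 0 to 0 against HIF1A siRNA and 1 to 3 against HIF2A siRNA. Over all genes, the single knockdown fits called 0.508 to 1.56%, 0.00766 to 0.253% and 0.689 to 1.42%, in that order. The double knockdown fits called 2.33 to 12.6%, 0.2 to 1.6% and 1.22 to 3.53%. Per kilobase of coding sequence the levels were 314 CPM for COL4A1, 243 for COL4A2, 36.7 for COL18A1, 31.4 for COL6A1, 28.2 for COL5A1, 3.69 for COL27A1, 0.401 for COL5A2, 0.239 for COL4A4 and 0.212 for COL4A3. The causes of these shifts were not tested. Depth limits COL15A1, COL6A3 and the other genes near 1 CPM, where a library held few counts.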
